A study of Bos taurus with 24 samples.

Results

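The genes described here are 10 bovine genes of the immunoproteasome and of the path that loads peptides onto class I molecules of the major histocompatibility complex (MHC): PSMB8, PSMB9, PSMB10, PSME1, PSME2, TAP1, TAP2, TAPBP, B2M and NLRC5. They were chosen by function and by symbol, and each symbol stood on 1 row of the deposited tables, so that 10 of the 27550 rows with a gene symbol, among 59846 rows in all, were members. RNA-Seq was performed on dermal fibroblasts grown from shoulder skin of 4 Angus (beef) and 4 Holstein (dairy) heifers of about the same age, to ask whether the breeds differ at rest and after lipopolysaccharide (LPS), which Gram-negative bacteria carry in their outer membrane. Each culture gave a sample before LPS (0 h) and after 2 h and 8 h with LPS at 100 ng/ml, which made 24 samples in 6 groups of 4: Angus and Holstein, each at 0, 2 and 8 h. All cultures were expanded, frozen and thawed fibroblasts in early passage with no genetic change, and the lysates of duplicate wells were pooled, so a sample stood for 1 animal at 1 hour. No culture left without LPS for 2 or 8 h was analysed here, so the time in culture and LPS cannot be told apart.

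The proteasome degrades tagged proteins in a barrel-shaped core with catalytic beta subunits. When cells meet interferon or other inflammatory signals, the standard catalytic subunits PSMB5, PSMB6 and PSMB7 can be replaced in newly built cores by PSMB8, PSMB9 and PSMB10, which changes the peptides that are cut, and the PSME1 and PSME2 cap opens the core. The TAP1 and TAP2 transporter moves such peptides into the endoplasmic reticulum, where tapasin (TAPBP) helps to load them onto a class I heavy chain paired with B2M, and NLRC5 activates transcription of many genes of this path.

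On the genome build UMD v3.1, 5 of the 10 genes lay on chromosome 23. TAP2 (7079668 to 7108985, minus strand), PSMB8 (7113298 to 7116676, minus), TAP1 (7118281 to 7126521, minus) and PSMB9 (7127079 to 7133609, plus) followed each other with no other gene row between them. TAP1 and PSMB9 pointed away from each other, with 557 bp between their rows. TAPBP lay further along (7415847 to 7425523, minus), and 1283 bp of it were also covered by an interval row without a symbol and 68 bp by MIR2376, so reads could be counted for both. PSME2 (20838545 to 20841805, plus), PSME1 (20846749 to 20849410, minus, 3 bp from FAM158A) and B2M (104124760 to 104144329, plus) were on chromosome 10, and NLRC5 (25126947 to 25185333, plus) and PSMB10 (35540355 to 35542906, minus) on chromosome 18. Each row was a whole gene span, so exons, introns and untranslated regions were not separated.

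The level of a gene is given as counts per 1000000 (CPM), scaled between samples by trimmed mean of M-values (TMM), and levels of different genes were not compared because the length of their transcripts was not at hand. The summed counts of a sample were 51014538 to 104406293, and a count of 3 was worth 0.029 to 0.059 CPM. All 11 fibroblast markers examined reached a mean of 1 CPM in every group. Of 11 leukocyte markers, CD68 alone did so, the sum of the 11 was 1.92 to 5.62 CPM in any sample, and PTPRC, carried by all leukocytes, was at 0.274 to 0.709 CPM. Other markers of 1 CPM or more were KRT5 (keratinocyte) in Holstein samples, where the sum of the 6 keratinocyte markers reached 13.9 CPM against 0.745 in Angus, TEK and VWF (endothelial) and PMEL (melanocyte). The part of these markers in the results was not tested, and fewer cells of a type cannot be told apart from less RNA per cell. In 4 samples (at 0 h those of Angus animal 4 and of Holstein animals 2 and 4, at 2 h that of Angus animal 3), each count of the collagen gene COL1A1 covered fewer bases (66.2 to 67.1) than in the 20 remaining samples (111.8 to 119). They are called samples with other counting below, which is a name only. The labels do not explain the difference, and its cause was not tested. For each of the 10 genes, the bases per count in these samples overlapped the range of the others. They were 68.2 to 77.2 against 65.3 to 74.4 for PSMB8 and 59.7 to 62.2 against 57.6 to 62.9 for PSMB10. For TAP2 they were 74.2 to 75.9 against 72.6 to 76.5, and for PSMB9 57.5 to 78.4 against 54.9 to 69.2. TAP1 reached furthest above the others, with 65.6 to 96.1 against 64.2 to 71.1. Fits without these samples, which also rest on fewer samples, are given where a call depended on them.

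LPS was followed at 8 h by higher levels of most of these genes. With both breeds together, 7 of the 10 genes rose from 0 h to 8 h at a false discovery rate (FDR) under 0.05, against 6.55% of all rows tested that rose, and none fell (6.25% of all rows). PSMB9 could enter this fit only through its 8 h level, and of the other 9 genes 6 rose. The catalytic subunits PSMB8, PSMB9 and PSMB10, the activators PSME1 and PSME2 and the transporter chains TAP1 and TAP2 were higher at 8 h than at 0 h in all 8 animals, a pattern held by 13.8% of all rows. Every 8 h culture lay above every 0 h culture for PSMB8, PSMB9, PSME2 and TAP1, as for 1.66% of all rows. TAPBP, B2M and NLRC5 did not pass, although each was higher in 7 of 8 animals. The median log2 fold change over the 10 genes was 0.57, against -0.01 over all rows. PSMB8, PSMB9 and TAP1 were also past the threshold of the study, which adds a fold change of 2 or more and an average above 1 CPM and was reached by 1.07% of all rows in the upward direction. When the animal was added as a replicate block, all 10 genes rose, in a fit that called 40.7% of all rows in either direction. In the quasi-likelihood F test without the block, which widens the error with the spread of each row, 6 rose, without TAP2. That fit leaves out the pairing of the hours by animal. With the block in the F test, all 10 passed, and the share of all rows called by that fit is not given here.

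**Figure D1:**
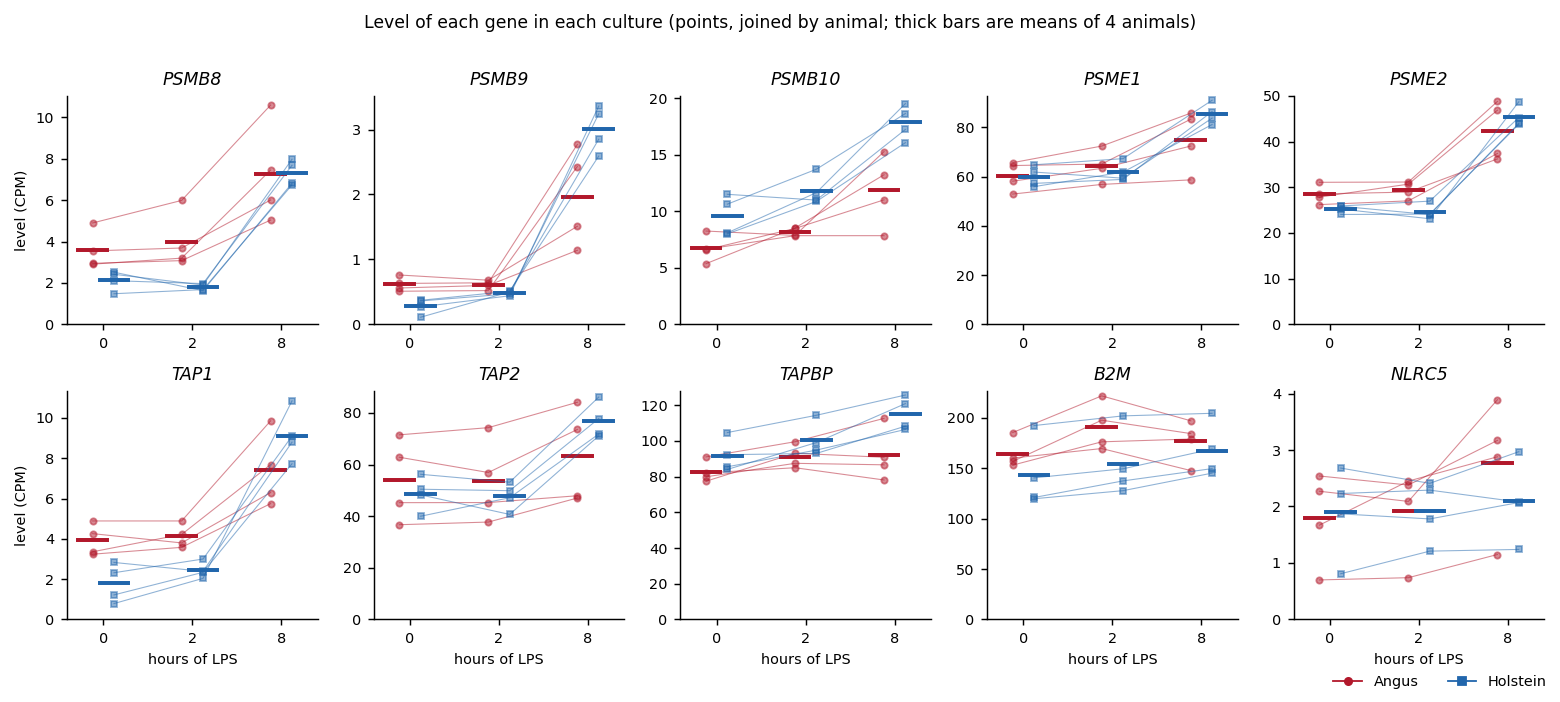
Level of each of the 10 genes in CPM (linear axes from 0, one panel per gene) against hours of LPS, with a point per culture joined by animal and a thick bar at the mean of 4 animals (Angus red circles, Holstein blue squares). PSMB8, PSMB9 and TAP1 lie higher at 8 h than at 0 h in every animal, and their 0 h levels are lower in all Holstein than in all Angus cultures.

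Of the catalytic subunits, PSMB8, which replaces the chymotrypsin-like PSMB5, was a gene of low level. In Angus cultures of animals 1 to 4, it stood at 4.90, 2.95, 2.91 and 3.55 CPM at 0 h, 5.99, 3.08, 3.20 and 3.69 CPM at 2 h, and 10.6, 5.04, 7.46 and 6.01 CPM at 8 h. In Holstein cultures, it stood at 2.52, 2.42, 2.11 and 1.48 CPM at 0 h, 1.63, 1.90, 1.97 and 1.68 CPM at 2 h, and 6.82, 7.98, 7.69 and 6.74 CPM at 8 h. The Holstein values were below all Angus values before LPS and lay within the Angus range at 8 h, and in neither breed did the 0 h and 8 h values overlap. The rise at 8 h with both breeds was 1.34 on the log2 scale (SE 0.205, FDR = 1.28e-08), or 2.54-fold. It was 1.77 in Holstein (SE 0.186, FDR = 1.75e-18) and 1.02 in Angus (SE 0.28, FDR = 0.0136). The Angus rise had an FDR of 0.145 without Angus animal 3, of 0.0616 without Angus animal 4 and of 0.0503 without the 4 samples with other counting of COL1A1.

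PSMB9, which replaces the caspase-like PSMB6, had the largest log2 change of the 10 genes. At 0 h, it stood at 0.63, 0.76, 0.51 and 0.56 CPM in Angus animals 1 to 4 and at 0.36, 0.37, 0.27 and 0.11 CPM in Holstein animals 1 to 4, the last from a count of 5. At 2 h, the values were 0.64, 0.68, 0.52 and 0.60 CPM in Angus and 0.47, 0.51, 0.44 and 0.50 CPM in Holstein. At 8 h, they were 2.77, 1.51, 2.43 and 1.14 CPM in Angus and 3.24, 2.59, 3.36 and 2.85 CPM in Holstein. Every 8 h culture was above every culture of the earlier hours, and at 8 h only Angus animal 1 reached into the Holstein range. From low to high, the group means ran from Holstein 0 h over Holstein 2 h, Angus 2 h, Angus 0 h and Angus 8 h to Holstein 8 h, and of these neighbours the Angus groups at 0 h and 2 h, and the breeds at 8 h, overlapped. Since PSMB9 stayed under 1 CPM before 8 h, it entered the fits, which required 1 CPM in at least 50% of the samples compared, only through its 8 h samples, and it was not tested at 0 h or 2 h. The rise at 8 h was 2.46 with both breeds (SE 0.29, FDR = 1.1e-13), 3.39 in Holstein (SE 0.269, FDR = 2.45e-34) and 1.68 in Angus (SE 0.325, FDR = 6.9e-05), that is 5.49-fold, 10.5-fold and 3.20-fold.

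PSMB10, which replaces the trypsin-like PSMB7, rose in both breeds at 8 h. In Angus animals 1 to 4, it stood at 5.37, 6.60, 8.26 and 6.64 CPM at 0 h, 8.53, 8.49, 7.87 and 7.85 CPM at 2 h, and 13.2, 11.02, 15.3 and 7.85 CPM at 8 h. In Holstein animals 1 to 4, it stood at 11.5, 8.10, 8.01 and 10.6 CPM at 0 h, 11, 11.7, 10.9 and 13.7 CPM at 2 h, and 17.2, 19.5, 16.1 and 18.7 CPM at 8 h. The lowest 8 h value, of Angus animal 4, lay within the range of the Angus 0 h values, whereas all Holstein values at 8 h were above all Holstein values at 0 h and 2 h. The rise at 8 h was 0.91 in Holstein (SE 0.151, FDR = 1.28e-07) and 0.82 in Angus (SE 0.235, FDR = 0.0208). The Angus rise had an FDR of 0.368 without Angus animal 1, 0.201 without Angus animal 2 and 0.0704 without the 4 samples with other counting. At 2 h, the log2 fold change with both breeds was 0.29 (SE 0.171, FDR = 0.242) and passed the test only with the animal as a replicate block (0.30, FDR = 0.00241), as did that in Holstein (0.31, FDR = 0.0158, against 0.30 and 0.231).

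PSME1 and PSME2, the alpha and beta subunits of the 11S activator (PA28), rose by less than 2-fold. PSME2 stood at 31.1, 26.2, 27.8 and 28.5 CPM at 0 h and at 48.8, 37.4, 46.9 and 36.2 CPM at 8 h in Angus animals 1 to 4. In Holstein animals 1 to 4, it stood at 25.8, 24.04, 25.9 and 25.2 CPM at 0 h and at 44.0, 43.8, 45.2 and 48.7 CPM at 8 h. The 8 h values were above all 0 h values, and the Holstein cultures at 0 h lay below all Angus cultures. PSME2 rose by 0.70 with both breeds (SE 0.0843, FDR = 4.13e-14), 0.85 in Holstein (SE 0.086, FDR = 2.19e-20) and 0.57 in Angus (SE 0.138, FDR = 0.00268), where the FDR was 0.0575 without Angus animal 1 and 0.0567 without Angus animal 3. For PSME1, the values were 52.9 to 65.6 CPM at 0 h and 58.6 to 85.7 CPM at 8 h in Angus, and 55.9 to 64.8 CPM at 0 h and 81.1 to 90.9 CPM at 8 h in Holstein. The PSME1 hours overlapped in Angus and not in Holstein. PSME1 rose by 0.52 in Holstein (SE 0.0889, FDR = 3.41e-07), while the Angus change of 0.31 (SE 0.152) passed only with the replicate block (FDR = 0.00107, against 0.33 without it).

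TAP1, 1 of the 2 chains of the peptide transporter, was the only transporter gene past the threshold of the study. In Angus animals 1 to 4, it stood at 4.89, 3.24, 3.36 and 4.26 CPM at 0 h, 4.89, 3.58, 4.22 and 3.80 CPM at 2 h, and 9.86, 5.75, 7.69 and 6.30 CPM at 8 h. In Holstein animals 1 to 4, it stood at 2.83, 1.22, 2.32 and 0.79 CPM at 0 h, 2.39, 2.34, 3.00 and 2.04 CPM at 2 h, and 8.80, 7.73, 9.10 and 10.8 CPM at 8 h. As with PSMB8, the Holstein cultures were lower than all Angus cultures at 0 h and 2 h, and the breeds overlapped at 8 h. Within each breed, the 0 h and 2 h values overlapped. TAP1 rose at 8 h by 1.52 with both breeds (SE 0.285, FDR = 8.29e-06), 2.34 in Holstein (SE 0.348, FDR = 6.72e-09) and 0.91 in Angus (SE 0.232, FDR = 0.00575). The Angus rise had an FDR of 0.095 without Angus animal 3. The lowest Holstein values at 0 h came from animals 2 and 4, which were among the 4 samples with other counting. In those 4 samples, each TAP1 count covered 65.6 to 96.1 bases, and in the 20 remaining samples 64.2 to 71.1, and without the 4 samples the Holstein rise was 1.83 (SE 0.219, FDR = 1.27e-12).

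TAP2, the other chain, differed more between Angus animals than between hours. Angus animals 1 to 4 stood at 71.5, 36.7, 62.8 and 45.2 CPM at 0 h, 74.3, 37.7, 56.9 and 45.3 CPM at 2 h, and 84.1, 47.0, 73.6 and 47.9 CPM at 8 h. Holstein animals 1 to 4 stood at 48.2, 40.0, 50.4 and 56.2 CPM at 0 h, 40.7, 47.2, 49.9 and 53.2 CPM at 2 h, and 71.1, 71.8, 77.8 and 86.1 CPM at 8 h. Angus animals 1 and 3 were above Angus animals 2 and 4 at every hour, and the Holstein cultures at 8 h were above all Holstein cultures of the earlier hours. The Holstein rise was 0.66 (SE 0.126, FDR = 6.79e-06). The Angus change of 0.22 (SE 0.269) passed only with the replicate block (FDR = 0.0262). With both breeds, the rise of 0.44 (SE 0.159, FDR = 0.0474) was at the limit, and the FDR was 0.0688 without Angus animal 3, 0.129, 0.154, 0.142 and 0.114 without Holstein animals 1 to 4 in turn, 0.0677 in the quasi-likelihood F test, 0.105 without the CPM filter and 0.237 without the 4 samples with other counting. These fits had no block. With the replicate block, the FDR of this rise was 1.28e-06, and with the block in the F test it was 0.000979.

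TAPBP (tapasin), which acts on the class I molecule itself, stood at 77.5 to 91.1 CPM at 0 h and 78.2 to 113 CPM at 8 h in Angus, and at 84.1 to 105 CPM and 106 to 126 CPM in Holstein, where the hours did not overlap. Its Holstein rise of 0.33 (SE 0.109, FDR = 0.0191) had an FDR of 0.0701, 0.237 and 0.0839 without Holstein animals 1, 2 and 3 and of 0.0572 without the CPM filter. With both breeds, the change of 0.25 (SE 0.107, FDR = 0.116) passed without Angus animal 4 (FDR = 0.0464) with the replicate block (0.23, FDR = 0.000691) and with library totals in place of TMM (0.32, FDR = 0.00742). At 2 h, the change of 0.13 with both breeds (SE 0.0861, FDR = 0.317) passed with the block (FDR = 0.00551).

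B2M, the light chain shared by class I molecules, stood at 153 to 185 CPM at 0 h and 148 to 197 CPM at 8 h in Angus. In Holstein, it stood at 120 to 192 CPM at 0 h and 145 to 204 CPM at 8 h, and animal 3 was the highest at every hour. The change at 8 h with both breeds was 0.16 (SE 0.116, FDR = 0.429), and 0.17 with the replicate block (FDR = 0.00799). At 2 h, it was 0.16 (SE 0.134, FDR = 0.467) and passed with the block (FDR = 0.00187), as it did within Angus (0.22, FDR = 0.0107 with the block and 0.333 without it). TAPBP and B2M were the 2 genes that were higher at 2 h than at 0 h in all 8 animals, a pattern held by 17.8% of all rows.

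NLRC5, the transactivator, stood at 1.67, 2.27, 0.70 and 2.54 CPM at 0 h and at 2.88, 3.89, 1.15 and 3.17 CPM at 8 h in Angus animals 1 to 4. In Holstein animals 1 to 4, it stood at 2.68, 0.81, 1.87 and 2.23 CPM at 0 h and at 2.97, 1.24, 2.07 and 2.08 CPM at 8 h. Angus animal 3 and Holstein animal 2 were the lowest of their breed at every hour, and the hours overlapped in both breeds. The log2 fold change at 8 h was 0.62 in Angus (SE 0.455, FDR = 0.626) and 0.14 in Holstein (SE 0.382, FDR = 0.877). The Angus value passed with the replicate block (0.64, FDR = 0.000601), as did that of both breeds (0.41, FDR = 0.00359, against 0.39 and 0.467). NLRC5 was thus the only gene of the 10 with a smaller fitted change in Holstein than in Angus at 8 h, and this difference between breeds was -0.49 (SE 0.62, FDR = 1.0).

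At 2 h, none of the 9 genes tested with both breeds passed (lowest FDR 0.242), against 22.0% of all rows, and none had an unadjusted p under 0.05. The quasi-likelihood F test without a block also called none, while the replicate block called PSMB10, TAPBP and B2M in a fit that called 47.5% of all rows. With the block in the F test, the same genes passed (FDR = 0.0092, 0.00446 and 0.00257), so the calls at 2 h depended on whether the hours were paired by animal. The fitted changes of the 9 genes lay between -0.03 and 0.29. Within the breeds, 0 of 9 genes passed at 2 h in Holstein (17.2% of all rows) and 0 of 9 in Angus (13.8%), again with none at an unadjusted p under 0.05. PSMB9, which was not tested at 2 h, was above its 0 h level in all 4 Holstein cultures and in 3 of 4 Angus cultures. From 2 h to 8 h, 7 of 10 genes rose (12.2% of all rows), those named above for 0 h to 8 h. Of these, PSMB9 could enter the fit only through its 8 h level. PSMB8 rose by 1.34, PSMB9 by 2.19 and TAP1 by 1.34 on the log2 scale from 2 h to 8 h. The FDR of PSMB10 was 0.0526 without Angus animal 3, against 0.0104, and that of TAP2 was 0.0698, 0.058, 0.062 and 0.0576 without Holstein animals 1 to 4 in turn, against 0.0161. NLRC5 passed with the block (0.33, FDR = 0.0177). The comparisons of 2 h and 8 h with 0 h share the 0 h samples and are not independent.

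Within the breeds, 8 of 10 genes rose at 8 h in Holstein (8.19% of all rows) and 5 of 10 in Angus (1.94%), the latter being PSMB8, PSMB9, PSMB10, PSME2 and TAP1. Both counts include PSMB9, which could enter these fits only through its 8 h level. The same 8 genes had every 8 h culture above every 0 h culture in Holstein (10.9% of all rows), and in Angus PSMB8, PSMB9, PSME2 and TAP1 did (5.66%). With the replicate block, 8 passed in Angus, with PSME1, TAP2 and NLRC5 added, and 9 in Holstein, with B2M added (0.24, FDR = 0.000744). These fits called 20.7% of all rows in Angus and 35.2% in Holstein. Without the block, the quasi-likelihood F test kept 8 in Holstein and 2 in Angus, PSMB9 and PSME2, with an FDR of 0.094 for PSMB8, 0.103 for PSMB10 and 0.0659 for TAP1 in Angus. With the block in the F test, 9 passed in Holstein and 8 in Angus. The Angus FDR was then 0.00141 for PSMB8, 0.00881 for PSMB10 and 0.00187 for TAP1. The number passing in each breed is no test of a difference between breeds, which is given by the interaction.

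**Figure D2:**
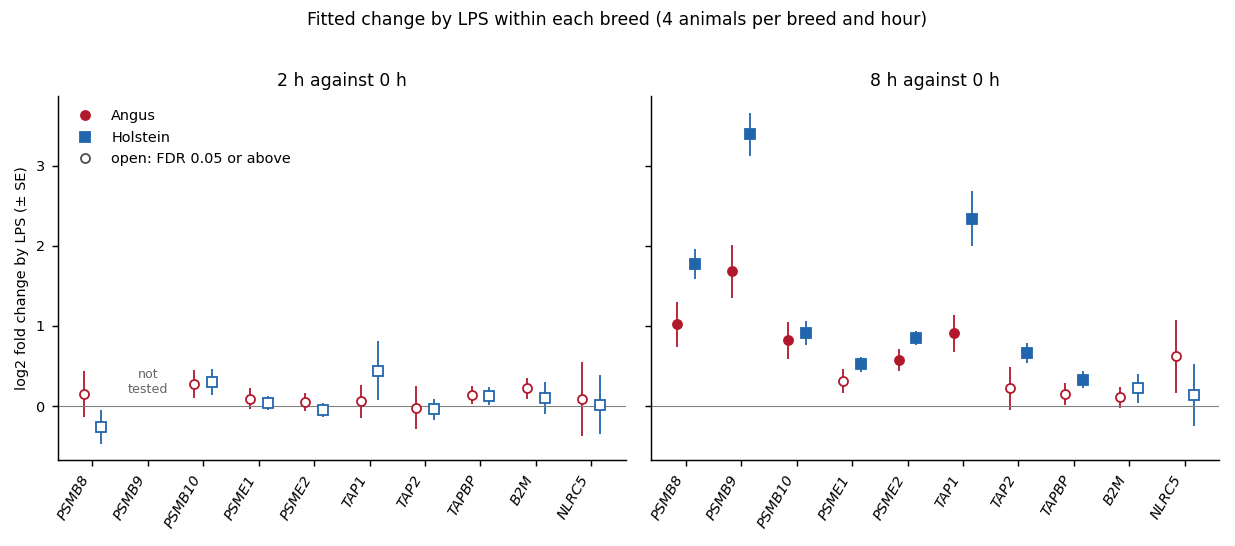
Fitted log2 fold change by LPS (vertical axis, bars are standard errors) for each gene at 2 h (left) and 8 h (right) against 0 h, in Angus (red circles) and Holstein (blue squares), with 4 animals per breed and hour. Filled symbols have an FDR under 0.05, PSMB9 was not tested at 2 h, and the Holstein symbol lies above the Angus symbol at 8 h for every gene but NLRC5.

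The interaction of breed and LPS asks whether the change differed between breeds. At 8 h, 1 of 10 genes passed, PSMB9, against 0.118% of all rows with a larger change in Holstein. It was in this fit only because of its level at 8 h, so the count is given with no reading, and without the CPM filter its FDR was 0.115. Its change in Holstein was larger by 1.71 on the log2 scale (SE 0.426, FDR = 0.0425). In single animals, the PSMB9 change was 3.17, 2.82, 3.63 and 4.69 in Holstein animals 1 to 4 and 2.14, 1.00, 2.26 and 1.03 in Angus animals 1 to 4. The breeds did not overlap, and the largest value, of Holstein animal 4, rested on the count of 5 at 0 h. The FDR of PSMB9 was 0.489 in the quasi-likelihood F test, 0.493 without the 4 samples with other counting and 0.00122 with the replicate block. With the block in the F test, it was 0.0955. It was 0.444 and 0.0793 without Angus animals 2 and 4, and 0.116, 0.0501, 0.312 and 0.429 without Holstein animals 1 to 4 in turn.

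The other genes did not pass the interaction test at 8 h without the replicate block. For 6 genes, PSMB8, PSMB9, PSME1, PSME2, TAP1 and TAP2, every Holstein animal changed more than every Angus animal, a pattern held by 4.36% of all rows. Of these, PSMB9 was among the rows compared only through its 8 h level. PSMB8 changed by 1.44 to 2.19 in single Holstein animals and by 0.76 to 1.36 in Angus animals. For TAP1, the changes were 1.64 to 3.77 in Holstein and 0.57 to 1.20 in Angus. The Holstein changes above 2, of animals 2 and 4, rested on 0 h samples with other counting, and without the 4 such samples the TAP1 interaction was 0.87 (SE 0.344), against 1.43 (SE 0.424) with them. With the replicate block, which called 2.59% of all rows, the interaction passed for PSMB9 and also for PSMB8 (0.78, FDR = 0.0136, against 1.0 without the block), TAP1 (1.56, FDR = 0.00431, against 0.272) and TAP2 (0.43, FDR = 0.0014, against 1.0), and none of these passed when the block was fitted with the quasi-likelihood F test. Without Holstein animal 1, TAP1 passed with no block (1.74, FDR = 0.0468). At 2 h, none of the 9 genes tested passed (0.437% of all rows), and none had an unadjusted p under 0.05 or passed in the F test.

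**Figure D3:**
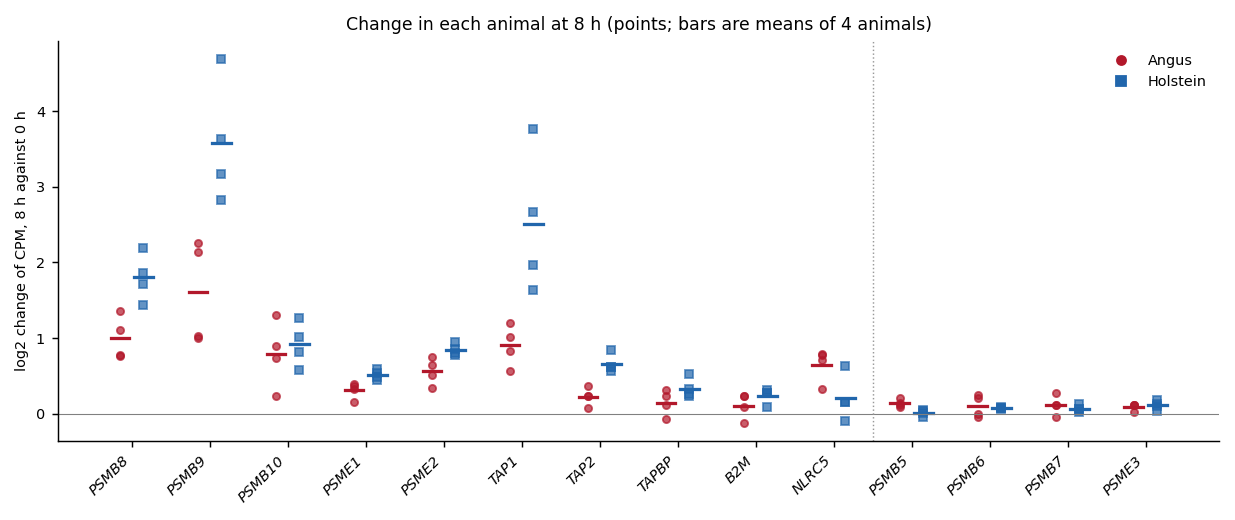
Log2 change of the CPM level from 0 h to 8 h in each animal (points) for the 10 genes and, right of the dotted line, for the standard subunits PSMB5, PSMB6 and PSMB7 and the activator PSME3, with bars at the means of 4 animals (Angus red circles, Holstein blue squares). For PSMB8, PSMB9, PSME1, PSME2, TAP1 and TAP2 all Holstein points lie above all Angus points, and the 4 genes on the right stay near 0.

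Before LPS, the breeds differed in PSMB8 and TAP1. At 0 h, 2 of 9 genes passed, both lower in Holstein (6.98% of all rows were lower). PSMB8 was at 2.13 ± 0.468 CPM in Holstein against 3.58 ± 0.929 CPM in Angus (SD, n = 4 each), a log2 fold change of -0.74 (SE 0.249, FDR = 0.0273). TAP1 was at 1.79 ± 0.947 CPM against 3.94 ± 0.782 CPM, a log2 fold change of -1.13 (SE 0.368, FDR = 0.0234). All Holstein cultures were below all Angus cultures for PSMB8, PSME2 and TAP1, as for 7.99% of all rows, but PSME2 did not pass (-0.17, SE 0.102, FDR = 0.282).

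Neither call at 0 h held in every fit. Without the 3 samples at 0 h with other counting of COL1A1, the PSMB8 value was -0.63 (SE 0.337, FDR = 0.475) and the TAP1 value -0.57 (SE 0.302, FDR = 0.464), and in the quasi-likelihood F test the FDR was 0.066 and 0.0757. Without the CPM filter, the FDR of PSMB8 was 0.0541. For PSMB8, it was 0.134, 0.0759, 0.0772 and 0.119 without Angus animals 1 and 4 and Holstein animals 3 and 4. For TAP1, it was 0.109, 0.0823, 0.0977 and 0.0594 without Angus animals 1 and 4 and Holstein animals 2 and 4. PSMB9 was not tested at 0 h because it did not reach 1 CPM, and in the fit without a filter it was lower in Holstein by -1.12 (SE 0.344, FDR = 0.0257).

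At 2 h, PSMB8 and TAP1 were again lower in Holstein, and PSMB10 was higher. These were 2 of 9 genes lower (9.71% of all rows) and 1 higher (10.4%). PSMB8 was at 1.79 ± 0.168 CPM in Holstein against 3.99 ± 1.36 CPM in Angus, a log2 fold change of -1.15 (SE 0.255, FDR = 0.000238). TAP1 was at 2.45 ± 0.402 CPM against 4.12 ± 0.578 CPM, a log2 fold change of -0.76 (SE 0.196, FDR = 0.00203). PSMB10 was at 11.8 ± 1.32 CPM against 8.19 ± 0.378 CPM, a log2 fold change of 0.52 (SE 0.141, FDR = 0.00283). For PSMB8, PSME2 and TAP1, all Holstein cultures were below all Angus cultures (11.1% of all rows), and for PSMB10 all were above (12.9%). PSMB8, TAP1 and PSMB10 passed in the quasi-likelihood F test and without the sample at 2 h with other counting (FDR = 5.7e-05, 0.00466 and 0.00477). PSME2 was also lower in the F test (-0.27, FDR = 0.0388, against 0.0574) and in DESeq2 (FDR = 0.0138), and B2M was lower without Holstein animal 3 (-0.47, FDR = 0.0162, against -0.32 and 0.182 with it).

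At 8 h, the difference in PSMB8 was 0.01 (SE 0.234, FDR = 0.985) and that in TAP1 0.31 (SE 0.205, FDR = 0.322). The group means of PSMB8 were then 7.31 ± 0.621 CPM in Holstein and 7.28 ± 2.43 CPM in Angus. The spread between Angus animals was wider than between Holstein animals for both genes. PSMB9, tested at this hour, differed by 0.62 (SE 0.291, FDR = 0.132).

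PSMB10 alone passed at 8 h, 1 of 10 genes (8.72% of all rows were higher), and alone had every Holstein culture above every Angus culture (11.2%). It was at 17.9 ± 1.53 CPM in Holstein and 11.8 ± 3.18 CPM in Angus, a log2 fold change of 0.60 (SE 0.202, FDR = 0.0263). Its values in the 0 h, 2 h and 8 h fits were 0.51, 0.52 and 0.60, and the 0 h value (SE 0.195, FDR = 0.0616) passed without Angus animal 3 (FDR = 0.0117) or Holstein animal 3 (FDR = 0.0473) and in DESeq2 (FDR = 0.0365). At 8 h, the FDR was 0.063 in the quasi-likelihood F test, 0.0584 without the CPM filter, 0.0517, 0.091 and 0.0526 without Angus animals 1, 2 and 4, and 0.0512, 0.102 and 0.101 without Holstein animals 1, 2 and 4. TAPBP was higher in Holstein at 8 h without Angus animal 3 (0.43, FDR = 0.00155), against 0.33 (SE 0.136, FDR = 0.0791) with it.

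**Figure D4:**
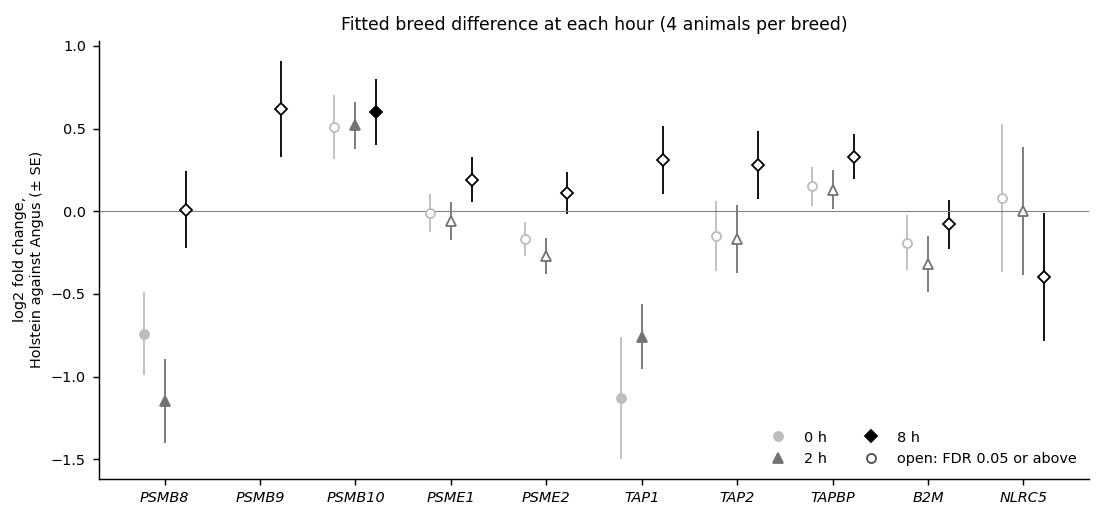
Fitted log2 fold change of Holstein against Angus (vertical axis, bars are standard errors, 4 animals per breed) for each gene at 0 h (light circles), 2 h (grey triangles) and 8 h (black diamonds), filled where the FDR is under 0.05. PSMB8 and TAP1 are lower in Holstein at 0 h and 2 h and near or above 0 at 8 h, PSMB10 is above 0 at all 3 hours, and PSMB9 was tested at 8 h only.

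Of the standard catalytic subunits PSMB5, PSMB6 and PSMB7, 0 of 3 passed at 8 h with both breeds, with or without the replicate block, with log2 fold changes of 0.07, 0.09 and 0.08 (FDR = 0.628, 0.526 and 0.465). Each immunoproteasome subunit was therefore also set against the subunit it replaces, as the change of the log2 ratio of CPM + 1 within an animal. The PSMB8 to PSMB5 ratio changed at 8 h by 1.40 ± 0.21 in Holstein and 0.69 ± 0.25 in Angus (SD, n = 4 each). The PSMB9 to PSMB6 ratio changed by 1.57 ± 0.19 in Holstein and 0.74 ± 0.40 in Angus. The PSMB10 to PSMB7 ratio changed by 0.78 ± 0.31 in Holstein and 0.60 ± 0.34 in Angus. The ratio was higher in all 8 animals for each pair, and the breeds did not overlap for PSMB8 and PSMB9 but did for PSMB10. At 2 h, the mean change of the 3 ratios lay between -0.18 and 0.20 in both breeds. Without the added 1 CPM, the PSMB9 ratio changed at 2 h by 0.88 ± 0.83 in Holstein and -0.13 ± 0.18 in Angus. It changed at 8 h by 3.5 ± 0.81 in Holstein and 1.51 ± 0.69 in Angus.

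Other genes of the proteasome are given in the same fit of 8 h against 0 h with both breeds, where 6.55% of all rows rose. Of 11 further core subunits, 4 rose at 8 h with both breeds (median of the list 0.20), among them PSMA6 by 0.54 (SE 0.0722, FDR = 2.14e-11), PSMA5 by 0.41 and PSMA2 by 0.38, which form the outer rings of the core. Of 21 genes of the 19S regulator, which binds and unfolds tagged proteins, 2 rose (median 0.10), PSMD14 by 0.45 (SE 0.0715, FDR = 3.91e-08) and PSMC1 by 0.22. Of 8 other activators, inhibitors and assembly factors, 1 rose (median 0.11), the assembly chaperone POMP by 0.22 (SE 0.0707, FDR = 0.024). PSME3, which forms a nuclear activator in place of PSME1 and PSME2, gave 0.10 (FDR = 0.397). None of these genes fell. With the animal as a replicate block, 10 of the 11 core subunits, 11 of the 21 genes of the 19S regulator and 5 of the 8 others rose, PSME3 among them (0.10, FDR = 0.0331). This fit called 40.7% of all rows in either direction.

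In the peptide loading path, 2 of 8 further genes rose, and both trim peptides in the endoplasmic reticulum. ERAP2 rose by 1.40 (SE 0.249, FDR = 2.24e-06) and ERAP1 by 0.65 (SE 0.186, FDR = 0.00678), and the median of the list was 0.14. With the block, in a fit that called 40.7% of all rows in either direction, 5 of the 8 rose. Of 4 rows for class I heavy chains and related genes, 0 passed with both breeds (median 0.26). With the replicate block, 2 of them rose at 8 h, JSP.1 (0.49, FDR = 2.15e-09, against 0.46 and 0.402) and BOLA-NC1 (0.57, FDR = 0.000393, against 0.55 and 0.222). JSP.1 was higher at 8 h in all 8 animals, by 0.12 to 0.76, and BOLA-NC1 in 7 of 8. The BOLA row changed at 8 h by a mean of -0.16 in Angus (2 of 4 animals higher) and 0.13 in Holstein (3 of 4). A further class I row, BOLA-A, was not on the list and was named after its values were seen. It changed at 8 h by a mean of 0.35 in Angus (3 of 4 animals higher) and 0.62 in Holstein (4 of 4). Within Holstein, 2 of the 4 listed rows rose with the block and 1 fell, in a fit that called 35.2% of all rows in either direction. Within Angus, 1 of the 4 rose, in a fit that called 20.7%. These values are uncertain because near-identical genes can share reads. Of 10 class II genes, 5 symbols had a row and 2 were tested, and neither passed without the block, with which 1 rose and 1 fell.

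Among 11 tested transcription factors of class I and interferon genes, IRF1 and NFKB1 rose at 8 h with both breeds (median of the list 0.27), against 6.55% of all rows. With the replicate block 7 did, in a fit that called 40.7% of all rows in either direction. Within the breeds, 6 of 11 rose at 8 h in Holstein (8.19% of all rows) and 2 in Angus (1.94%). At 8 h, 6 were higher in Holstein than in Angus (8.72% of all rows). The interaction at 8 h, which tests whether the change differed, passed for 1 of the 11 (0.118% of all rows with a larger change in Holstein). IRF1, which binds promoters of several of these genes, stood at 3.95 to 5.90 CPM at 0 h, 9.33 to 54.3 CPM at 2 h and 7.98 to 16.8 CPM at 8 h in Angus. In Holstein, IRF1 stood at 2.78 to 3.31, 43.5 to 97.0 and 16.8 to 26.2 CPM. IRF1 fell from 2 h to 8 h by 1.54 on the log2 scale (FDR = 0.000758), while 7 of the 10 genes rose over the same hours. Its change from 0 h to 8 h was larger in Holstein than in Angus by 1.32 (SE 0.302, FDR = 0.0163). NFKB1, a subunit of NF-kappa-B, rose by 1.84 at 2 h and 1.19 at 8 h (FDR = 5.43e-19 and 7.56e-10). Of 6 interferon and receptor genes, 4 passed the CPM filter and were tested. The type I receptor chains IFNAR2 and IFNAR1 rose at 8 h, by 1.13 (SE 0.196, FDR = 1e-06) and 0.45 (SE 0.09, FDR = 2.31e-05), against 6.55% of all rows. All 4 rose with the block, in the fit that called 40.7% of all rows in either direction.

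Over the 24 samples, which share the LPS response and library depth, the log2 levels of the 10 genes correlated with a median Pearson r of 0.48 over 45 pairs (range -0.19 to 0.95). The highest values were those of PSMB9 with PSME2 (0.95), PSMB8 with PSME2 (0.94) and TAP1 with PSMB8 and PSME2 (0.93 each), and the lowest that of TAPBP with NLRC5 (-0.19). When the means of the 6 groups were removed, the median was 0.26 (range -0.42 to 0.79), with the highest value for PSME2 and TAP2 and a value of 0.77 for PSMB10 and TAPBP. Within groups, NLRC5 correlated with no other gene above 0.10, while the 3 pairs among PSME1, PSME2 and TAP2 lay between 0.71 and 0.79.

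The mean profile of the 9 genes that reached 1 CPM in 12 or more samples was compared with 13064 other rows with a symbol. The highest Pearson r over the 24 samples were those of LOC507055 (0.92), SIK3 (0.91), BST2, LOC512486 and XRN2 (0.90 each). BST2 is an interferon-induced membrane protein that tethers virus particles, SIK3 is a salt-inducible kinase and XRN2 a nuclear exonuclease. LOC512486 carries the gene ID of GBP1, an interferon-induced GTPase, in the RefSeq table of the assembly ARS-UCD2.0. These values are descriptions of the same 24 samples and carry no test.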

How the data were processed

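RNA-Seq was performed on 24 samples, 4 animals per breed and hour, grouped by the sample labels. The submitters' notes name CASAVA 1.7. The authors filtered the reads, aligned them to UMD v3.1 with NextGENe 2.3.4 and deposited raw read counts per row. The mean coverage signal that the deposited tables list per row served to compare the counting between samples. A read can be counted in more than 1 row, and rows on opposite strands can share counts.

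Rows with 1 CPM or more in at least 50% of the samples compared were fitted in edgeR 4.0.16 (R 4.3.3) on the raw counts, with TMM scaling, the likelihood-ratio test named by the study and Benjamini-Hochberg adjustment over all rows. Each of 12 comparisons was fitted on its own samples. Standard errors came from the fitted information matrix. All log2 fold changes are from these fits unless a single animal or a ratio is named. The model without a block was run on simulated counts. These held no effect of the animal, so that run cannot speak to the pairing of the hours. The alternatives were the edgeR quasi-likelihood F test, DESeq2 1.42.0, a replicate block (the animal for LPS and for the interaction), median-ratio size factors, library totals alone, no filter, gene rows only, leaving out each animal, and leaving out the 4 samples with other counting of COL1A1.

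The hours pair by animal according to the labels. Samples of the same animal correlated after removal of group means (mean r 0.66, 0.62 and 0.61, lowest 0.43), and equal numbers in the 2 breeds did not (mean r -0.11 to -0.08). The 10 genes, gene lists and named-gene rules were chosen with earlier results of these data known. Named were all 10 genes, the standard catalytic subunits, PSME3, up to 3 genes per other list with the largest change at 8 h, and the 5 rows most like the mean profile. Rows that overlap or adjoin one of the 10 genes were named too, and BOLA-A was named after its values were seen. A gene of the transcription factor list is not reported here. Intervals of counts were not computed, and depth limits cover counting error only. No genome sequence of UMD v3.1 was used here, so no sequence is shown.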

Additional observations from a re-analysis of the deposited data

Results flagged for a closer look

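The change of PSMB9 from 0 h to 8 h was larger in Holstein than in Angus by 1.71 on the log2 scale (SE 0.426, FDR = 0.0425 in the edgeR interaction test). PSMB9 passed the CPM filter in this fit only through its 8 h samples, where it was high, and without the filter the FDR was 0.115. PSMB9 was higher at 8 h in 4 of 4 Holstein and 4 of 4 Angus animals. Its 0 h level in Holstein animal 4 was a count of 5, and the FDR over the other settings ran from 0.00122 with the replicate block to 0.493 without the 4 samples with other counting of COL1A1. No single sample stood apart from its group for any of the 10 genes (60 groups of 4 examined).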

How the results depend on the processing

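Of 34 single-gene results that passed, all kept direction and call under DESeq2, median-ratio size factors, library totals, gene rows only and the replicate block, and 29 did without the filter, 26 in the quasi-likelihood F test, 27 in that test with the block and 27 of 33 without the 4 samples. None turned direction. Of 80 values that did not pass, 33 changed sign in at least 1 setting, none of them passing with the new sign. Counts of passing genes that moved by over 1.5 times are as follows. With the animal as a replicate block, and alike with the block and the F test, 3 genes passed at 2 h with both breeds, 1 in Holstein and 1 in Angus, against 0 each, and 8 at 8 h in Angus against 5. The block gave 4 for the interaction at 8 h against 1. With the block and the F test, 0 passed for the interaction at 8 h. Between breeds each animal gave 1 sample, so a block could join only equal replicate numbers of unrelated animals. This pairing, which the correlations do not bear out, left the counts as they were with the likelihood-ratio test and gave 0 at 0, 2 and 8 h with the F test. The F test alone gave 2 at 8 h in Angus, and 0 between breeds at 0 h and 8 h and for the interaction at 8 h. Without the filter, 0 passed between breeds at 8 h and for the interaction at 8 h, where more rows share the adjustment. Without the 4 samples, 3 passed at 8 h in Angus, and 0 between breeds at 0 h and for the interaction at 8 h, with fewer samples. The block by animal moved no other call beyond those given in the report. The cause of the other shifts was not tested.

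Leaving out 1 animal gave 0 to 0 passing genes at 2 h with both breeds, in Holstein, in Angus and for the interaction at 2 h. It gave 6 to 8 at 8 h with both breeds, 6 to 7 from 2 h to 8 h, 7 to 8 at 8 h in Holstein and 2 to 4 at 8 h in Angus. Between breeds it gave 0 to 3 at 0 h, 3 to 4 at 2 h and 0 to 2 at 8 h, and for the interaction at 8 h 0 to 1. Without the added 1 CPM, 4 subunit ratios moved by more than their SD, the PSMB9 ratio in both breeds at 8 h among them. The low counts of PSMB9 before 8 h limit the precision of its fold changes.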
